A study of Mus musculus with 4 samples.

Results

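A set of 10 mouse microRNA names whose reads resemble repeats, tRNA or rRNA is described here. In the files they are mmu-mir-3470a, mmu-mir-3470b, mmu-mir-3473a, mmu-mir-3473b, mmu-mir-3473e, mmu-mir-3473f, mmu-mir-6240, mmu-mir-1983, mmu-mir-8111 and mmu-mir-1946a, written miR-3470a and so on below. They were picked because the lengths, the sequences and the group difference of their reads had already been seen, so their short reads, ragged starts and lower level in Mdd are given below as a description. A sequence was counted for them when its annotation held no other name. Of 1611102 distinct sequences in the files, 3452 carried a microRNA hairpin name and 309 carried only names among these 10. Reads were found for 9 of the 10 names, with none for miR-3473a alone, under 11 labels out of 430 in all. A label is a hairpin name with its copy number removed, or a joint name such as miR-3473b/miR-3473e where the authors assigned a sequence to several hairpins.

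The study profiled small RNA of C57BL mice in 2 control libraries and 2 libraries called Mdd. Mdd mice were given a changing set of daily stressors, such as restraint, tilted or damp cages, noise, strobe light, isolation and circadian disturbance, to produce a depressive-like state; control mice were handled only to feed them and clean their cages. The protocol says that RNA came from sperm and that fragments of 18 to 40 nt were selected, while the tissue fields name testis and testicular cells. No label ties a replicate to an animal of its own. The p-values therefore speak of the spread among these 4 libraries, and that spread may be technical.

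A microRNA is cut from a hairpin precursor by Dicer, an enzyme that measures its product from the end of the hairpin, so the reads of a microRNA usually share 1 length and 1 start. B1 and B2 elements are short interspersed repeats with very many copies in the mouse genome, in and between genes, and B1 descends from the 7SL RNA of the signal recognition particle. The reads named miR-3470a, miR-3470b, miR-8111 and miR-1946a resemble B1, and those named miR-3473b, miR-3473e and miR-3473f resemble B2, from general knowledge and with no repeat annotation used here. 28S rRNA, of the large ribosomal subunit, and tRNA are the most abundant RNAs of a cell, and their fragments are abundant in sperm.

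The most read sequence of the main labels is shown first, because the match to other RNAs can be read from it. Capitals mark the 14-base core that the miR-3470 labels share.
miR-6240: agcatcgcgaaggccc
miR-1983: gtgagttcgagcctca
miR-3470a: tttGTAGACCAGGCTGGcc
miR-3470b: tctGTAGACCAGGCTGGcc
miR-3470a/miR-3470b: tGTAGACCAGGCTGGc
miR-3473b/miR-3473e: gggctggagagatggc
miR-3473f: tgctcttccagaggt
miR-8111: ctgggattaaaggcgtg
miR-1946a: ggcaggtggatttctg

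In the RefSeq table used, a mature sequence was matched for 8 of the 10 names and a hairpin for 6. They are printed with the seed, bases 2 to 8, in capitals, to set the annotated product beside the reads found.
miR-6240: cCAAAGCAucgcgaaggcccacggcg
miR-1983: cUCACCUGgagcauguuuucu
miR-3470b: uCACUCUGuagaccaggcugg
miR-3473a: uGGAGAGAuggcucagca
miR-3473b: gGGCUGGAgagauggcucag
miR-3473e: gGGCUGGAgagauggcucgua
miR-3473f: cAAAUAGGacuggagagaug
miR-8111: aCCGGGCAugguaguguacac

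The 8 sequences held 7 distinct seeds, with GGCUGGA shared by miR-3473b and miR-3473e. In GRCm38.p6, the build of the RefSeq table, they lie at chr5:114851973-114851998 on the plus strand (miR-6240), chr13:21896930-21896950 minus (miR-1983), chr16:44013885-44013905 plus (miR-3470b) and chrX:162874920-162874937 minus (miR-3473a). The others lie at chr10:41670774-41670793 plus (miR-3473b), chr5:31667296-31667316 minus (miR-3473e), chr1:106546536-106546555 minus (miR-3473f) and chr8:84005704-84005724 plus (miR-8111). Reads identical to a listed mature sequence were found for miR-1983, with 7, 33, 50 and 8 reads in control 1, control 2, Mdd 1 and Mdd 2, the order kept below, and for miR-3473b, with 0, 44, 0 and 0. The other 6 had no read equal to the mature sequence in any library, among them miR-6240, whose label held 11965 reads.

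The libraries held 12845403, 22948488, 24031479 and 24112532 reads, of which 80923, 286864, 203531 and 96048 carried a microRNA name. Reads of 15 to 17 nt, below the length selected by the protocol, were 24.4% and 26.95% of all reads in the controls, against 1.18% and 1.27% in Mdd. The labels give no cause for that gap, and it follows the groups, so anything carried by reads of 15 to 17 nt cannot be told apart from the treatment. The usual number of copies of a genome-matched sequence was 7, 10, 38 and 8, and with no molecular identifiers a read is no separate molecule. Floors cover counting error only. Germ cell microRNAs (miR-34b, miR-34c, miR-449a and miR-465a, all 4 with reads) summed to 265277, 119109, 316831 and 236559 CPM of the microRNA reads, CPM being a count scaled to a common library size. All 3 striated muscle markers had reads, summing to 3126, 56490, 1454 and 1083, and all 4 blood markers, summing to 41027, 6038, 56561 and 46987, so control 2 stood apart in both lists; their part in the results below was not tested. All 4 epithelial markers had reads too, with sums between 3773 and 10870.

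The 10 names held 7157, 13324, 4792 and 2240 reads, which was 8.84%, 4.64%, 2.35% and 2.33% of the microRNA reads. Their level was 557, 581, 199 and 92.9 CPM of all reads, or 568.9 ± 16.6 in controls and 146 ± 75.3 in Mdd (SD, n = 2 each; exact two-sided permutation p = 0.333, the smallest that 2 against 2 samples allow). Both controls were above both Mdd libraries. In controls 67.1% and 70.2% of these reads were 15 to 17 nt long, against 0.0626% and 3.17% in Mdd. With reads of 18 nt or longer, as CPM of all reads of that length, the level was 243, 237, 202 and 91.1, so Mdd 1 lay close to the controls and Mdd 2 well below. At that length they held 2356, 3974, 4789 and 2169 reads, beside 69546, 259774, 194158 and 91842 of the other microRNA labels. Relative to those other reads the groups overlapped, with control 2 the lowest. The plot of reads under each label shows how much of each control bar is the short part.

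**Figure D1:**
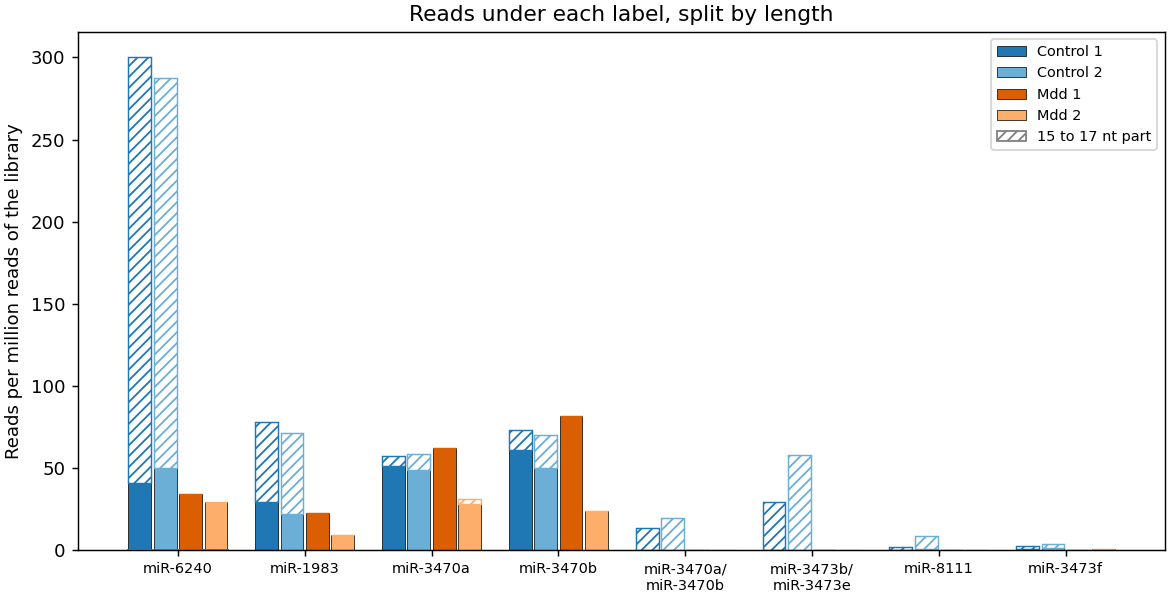
Reads under each of 8 labels as CPM of all reads of the library (linear vertical axis), 1 bar per library, with the part of 15 to 17 nt hatched. miR-6240 and miR-1983 bars of the controls are mostly hatched, whereas the Mdd bars hold almost none; miR-3470a and miR-3470b are mostly solid in every library.

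miR-6240, named as a microRNA but lying in sequence that matches 28S rRNA, had the most reads, with 3858, 6594, 814 and 699. At 18 nt or longer its reads were 525, 1141, 814 and 699, or 54.1, 68.1, 34.3 and 29.4 CPM. The controls remained above Mdd at that length, by a smaller margin than the full counts give. Its commonest length was 15 nt, with 37.6% of its reads. 

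miR-1983, whose reads overlap tRNA for isoleucine, had 1003, 1634, 535 and 217 reads. At 18 nt or longer it had 377, 494, 535 and 217, or 38.8, 29.5, 22.5 and 9.12 CPM. The groups again did not overlap, and 52.1% of its reads over the 4 libraries were 15 to 17 nt long. On the scale of all reads most microRNA labels were lower in Mdd. Over all lengths 181 of 248 labels (73.0%) had a negative log2 fold change, with a median of -0.79. How many labels had both controls above both Mdd libraries was not counted.

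The B1-like pair was less dependent on short reads, since 8.77% of miR-3470a reads and 12.4% of miR-3470b reads were 15 to 17 nt long. miR-3470a had 737, 1337, 1486 and 748 reads, and miR-3470b had 941, 1606, 1957 and 562. At 18 nt or longer miR-3470a stood at 67.4, 66.4, 62.6 and 28.4 CPM and miR-3470b at 80.2, 68.4, 82.3 and 23.6. For both names Mdd 2 was low and Mdd 1 lay close to the controls. The other microRNA labels pooled were also lowest in Mdd 2 at that length, with 7165, 15497, 8176 and 3858 CPM. As CPM of the microRNA reads over all lengths, miR-3470a stood at 9107, 4661, 7301 and 7788. On that scale miR-3470b stood at 11628, 5598, 9615 and 5851, and for both names the groups overlapped. Their commonest length was 19 nt, with 45.1% of miR-3470a and 54.0% of miR-3470b reads.

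A further 4 labels had reads in both controls and none in either Mdd library. miR-3473b/miR-3473e had 370 and 1321 reads in the controls, miR-3470a/miR-3470b 171 and 443, miR-8111 22 and 187, and miR-1946a 9 and 80. Every read of the first 2 and of miR-1946a was 15 to 17 nt long, and so were 91.9% of miR-8111 reads, the rest being 17 reads in control 2. With the Mdd libraries set to a floor of 3 reads each, the CPM of all reads was at least 347-fold lower for miR-3473b/miR-3473e, 131-fold for miR-3470a/miR-3470b, 39.6-fold for miR-8111 and 16.8-fold for miR-1946a, from the mean of the controls. From control 1 alone, the lower control for each, the bounds were 231, 107, 13.7 and 5.62. Among all reads, those of 15 to 17 nt were 24.4% and 26.95% in the controls and 1.18% and 1.27% in Mdd. The bounds cannot be told apart from that gap. In Mdd 1 the usual number of copies of a sequence was 38, above the floor of 3 reads, so the bounds concern counts only. The remaining 3 labels were small: miR-3473b had 44 reads in control 2 alone, miR-3473e 14 in control 1 alone, and miR-3473f 32, 78, 0 and 14.

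Differences between groups were read from 1 fit over all microRNA labels. With edgeR's quasi-likelihood test and Benjamini-Hochberg adjustment, 1 of 248 labels tested passed, which is 0.403%, and that 1 was miR-3473b/miR-3473e (adjusted p = 0.0357, log2 fold change -12.52 with an SE of 1.09, 0 reads in both Mdd libraries). As the contrast was known when the names were picked, nothing is read from the member being the call. Over 12 settings the fitted log2 fold changes of miR-3473b/miR-3473e lay between -12.82 and -11.66. It had 0 reads of 18 nt or longer, so none of these settings left out the short reads. Its adjusted p in edgeR was 4.46e-09 without control 1 and 4.11e-10 without control 2, but 0.459 without Mdd 1, 0.0528 without Mdd 2 and 0.293 with the replicate number as a block. Of the 11 labels, 9 passed the filter on low counts, 8 of them with a negative log2 fold change and a median of -2.55, beside 124 of 248 and a median of 0.02 over all labels tested. The 4 labels without Mdd reads passed that filter through the controls alone and so had to be lower in Mdd. The other 5 had a median of -1.77, and at their bounds the 4 all lay below -2.55, so the median over 9 could not move. The fitted values of such labels depend on the prior count and are no bound.

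In the same edgeR fit miR-3470a/miR-3470b had a log2 fold change of -11.20 (SE 1.59, adjusted p = 0.152). miR-6240 had -2.55 (SE 0.68, adjusted p = 0.331) and miR-1983 had -1.77 (SE 0.58, adjusted p = 0.371), both with the 2 controls above the 2 Mdd libraries. Neither passed. The values of miR-3470a, 0.25 (SE 0.53, adjusted p = 0.946), and miR-3470b, -0.02 (SE 0.60, adjusted p = 0.988), were smaller than their standard errors. DESeq2 called 14 of 248 labels (5.65%; 5.24% in the direction of lower in Mdd), 4 of them members and all lower: miR-3473b/miR-3473e, miR-3470a/miR-3470b (adjusted p = 1.53e-06), miR-6240 (0.00368) and miR-8111 (0.0116).

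With reads of 18 nt or longer edgeR called 0 of 236 labels (0%), against 11 at an unadjusted p under 0.05, and DESeq2 called 7 (2.97%; 2.12% lower in Mdd), none of them a member. Only 5 member labels passed the filter. The log2 fold change of miR-6240 became 0.04 (SE 0.65) and that of miR-1983 became -0.40 (SE 0.72), while miR-3470a stood at 0.23 (SE 0.65) and miR-3470b at 0.17 (SE 0.69), all with an adjusted p of 0.992 in edgeR. The signs of miR-6240 and miR-3470b thus differed from those over all lengths. These values are relative to the other microRNA labels, whereas the levels above are relative to all reads.

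The length of the reads set the 10 names apart from most labels. Reads of 21 to 23 nt, the usual Dicer product, made up 3.40%, 3.35%, 7.10% and 12.5% of theirs. In the other microRNA labels pooled the same window held 75.7%, 74.7%, 80.6% and 79.3%, in tRNA-labelled reads 8.10%, 5.58%, 12.5% and 16.998%, and in nuclear rRNA-labelled reads 14.2%, 10.8%, 22.4% and 16.2%. In every library the share was thus nearer to tRNA and rRNA than to other microRNAs. The difference between groups, 3.37% ± 0.0339 in controls and 9.78% ± 3.79 in Mdd (SD, n = 2; exact permutation p = 0.333), was not seen among reads of 18 nt or longer, where the share was 10.3%, 11.2%, 7.10% and 12.9% and the groups overlapped. Other microRNA labels held 80.3%, 78.7%, 82.5% and 80.98% at that length.

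**Figure D2:**
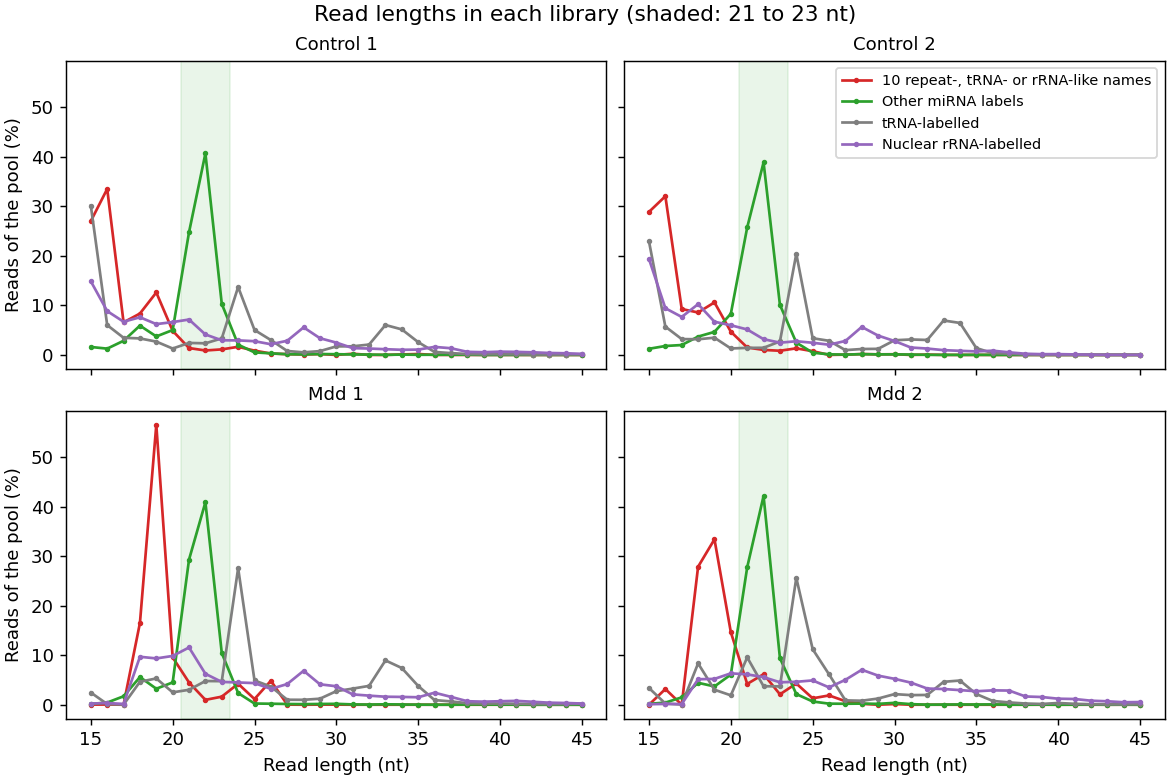
Share of reads (vertical axis, %) at each read length from 15 to 45 nt in each of the 4 libraries, for the 10 names, other microRNA labels, tRNA-labelled and nuclear rRNA-labelled reads. Other microRNA labels peak at 22 nt in every library, while the 10 names peak at 16 nt in both controls and at 19 nt in both Mdd libraries, left of the shaded window of 21 to 23 nt.

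By label, 21 to 23 nt reads made up 4.34% of miR-6240, 6.79% of miR-1983, 4.71% of miR-3470a, 6.81% of miR-3470b and 8.87% of miR-3473f over the 4 libraries, and 0% of miR-8111 and of both joint labels. Over the 206 other labels with at least 100 reads the median was 75.1% (quartiles 35.3% and 90.6%), and 139 were above 50%. Well known microRNAs were high, with 81.02% for miR-34b and 93.5% for miR-34c, both of male germ cells, 91.2% for let-7a, 86.5% for miR-191, 78.2% for miR-143, 95.8% for miR-92a, 95.7% for miR-21a and 95.6% for miR-449a. The 10 names were not alone at the low end: 17 of the 206 were below miR-6240 and 25 below miR-3473f, and 9 others were also at 0%.

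The starts of the reads varied too. A start was taken as the first 12 bases of a read, and the most used start of each label was summed over labels. It held 48.8%, 47.6%, 30.97% and 12.9% of member reads (48.2% ± 0.859 against 21.9% ± 12.8, SD, n = 2; exact permutation p = 0.333), with both controls above both Mdd libraries. The starts were taken from the 4 libraries pooled, in which short control reads are many: that of miR-6240 held 52.7% and 46.2% of its reads in the controls and 0% in Mdd. Among reads of 18 nt or longer the members' share was 33.3%, 42.7%, 40.4% and 30.98% (exact permutation p = 0.667), and the groups overlapped. Pooled over libraries the most used start held 42.2% of member reads, 87.5% of other microRNA reads, 76.7% of tRNA reads and 21.98% of rRNA reads. Among reads of 18 nt or longer these were 38.3%, 89.0%, 78.0% and 21.5%. In these pools members lay between tRNA and rRNA. The rRNA reads used 7603 different starts and member reads 99, and the shares were not adjusted for that.

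By label the most used start held 21.7% for miR-1983, 33.0% for miR-8111, 33.8% for miR-3470a, 39.5% for miR-3473f, 39.9% for miR-3470b and 42.4% for miR-6240. Over the 206 other labels the median was 91.4% (quartiles 74.0% and 98.2%), with 187 above 50%. The joint labels did not share the ragged starts: miR-3470a/miR-3470b had 79.6% of its reads at 1 start and miR-3473b/miR-3473e had 94.1%. Over 101 tRNA labels the median was 63.9%, and over 7 rRNA labels 9.04%.

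**Figure D3:**
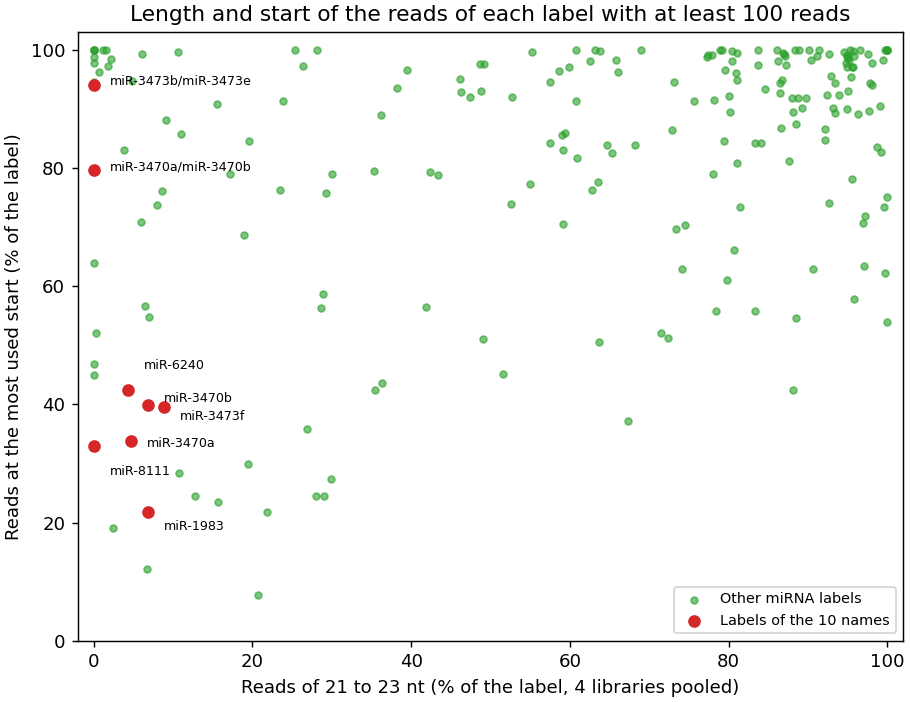
Share of reads of 21 to 23 nt (horizontal axis, %) against the share at the most used start (vertical axis, %) for each microRNA label with at least 100 reads over the 4 libraries, 8 labels of the 10 names in red and 206 others in green. Most others sit at the upper right; 6 of the red labels sit at the lower left, below 10% and 50%, and the joint labels at the upper left.

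On the RefSeq hairpins of miR-6240 and miR-1983 most reads did not begin at the listed mature start. The mature miR-6240 begins at base 26 of its 117-base hairpin. Of its 11965 reads 42.4% began at base 30, with 2033 and 3046 reads in the controls and none in Mdd, and 19.3% at base 31, with 888 and 1420 in the controls and none in Mdd. Starts at base 27 (9.37%; 156, 452, 308 and 205 reads) and base 65 (7.46%; 143, 370, 140 and 240 reads) were found in every library. No read began at base 26 in any library. Starts within 1 base of it, all at base 27, took 9.37% of the pooled reads, with 4.04% and 6.85% in the controls and 37.8% and 29.3% in Mdd.

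The mature miR-1983 begins at base 100 of a 132-base hairpin. The most used starts were base 88 with 21.7% of reads, base 83 with 14.2%, base 77 with 13.8% and base 89 with 9.65% of the pooled reads, out of 23 positions used. Base 88 (265, 453, 11 and 7 reads) and base 89 (136, 191, 0 and 0) were mainly starts of the controls. Base 83 (55, 113, 268 and 45 reads) was the most used in Mdd 1, and base 77 (165, 159, 63 and 81) in Mdd 2. Base 100 had 18, 44, 121 and 8 reads, and 3.49%, 2.75%, 22.6% and 3.69% of reads began within 1 base of it, with Mdd 1 above the other 3. Over 165 other labels with a listed hairpin the median share within 1 base of a mature start was 99.2% (quartiles 91.6% and 100%), and 144 were above 50%.

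**Figure D4:**
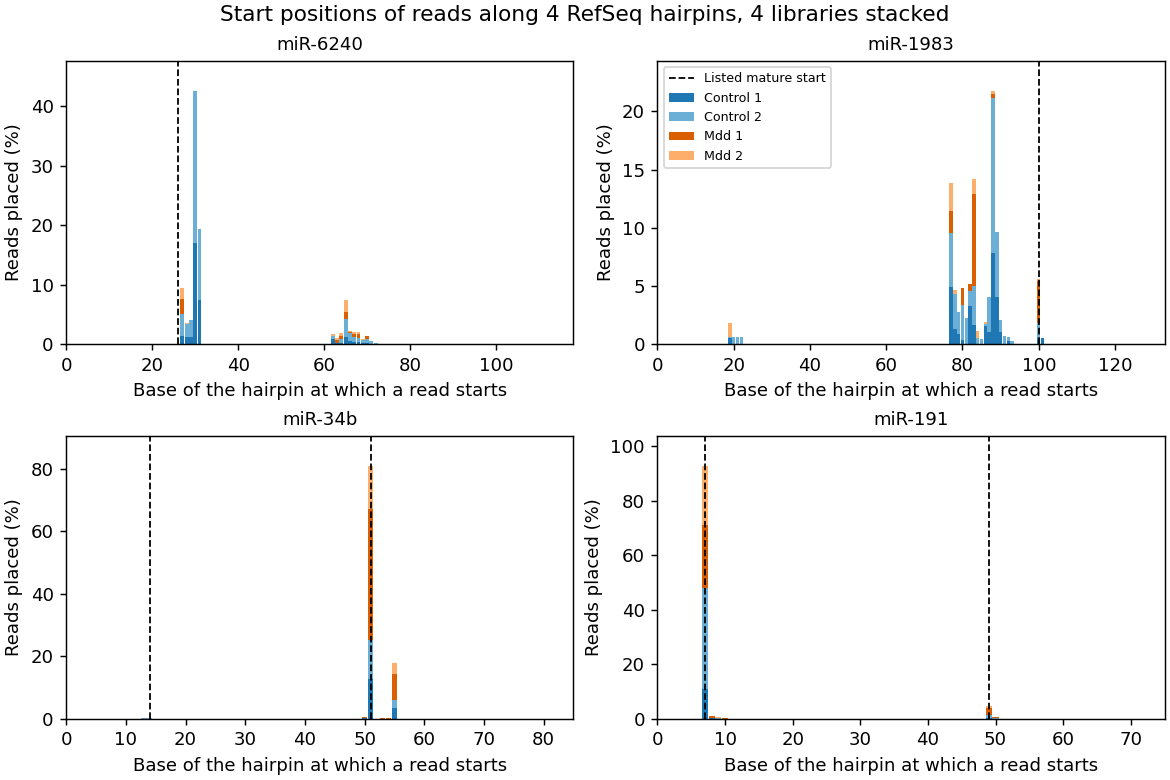
Share of placed reads (vertical axis, %) by the base of the RefSeq hairpin at which they start (horizontal axis), libraries stacked, for miR-6240, miR-1983 and for comparison miR-34b and miR-191; dashed lines mark listed mature starts. The 2 comparison labels pile up on a dashed line, with 80.9% of miR-34b at base 51 and 92.7% of miR-191 at base 7, while miR-6240 piles up, with control reads alone, at bases 30 and 31 and miR-1983 spreads over bases 77 to 89.

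For miR-3470b, with no hairpin in the table, 4394 reads could be placed on the mature sequence and its ends. Starts 4 bases after the mature start held 46.02%, 5 bases after 28.7%, 3 bases after 10.7%, and the mature start itself 5.12%. The core printed in capitals above was held by 89.4% of miR-3470a reads and 79.4% of miR-3470b reads. In miR-3470a 37.4% of these reads began 2 bases before the core and 35.9% began 3 bases before it; in miR-3470b 30.9% and 50.3% did. The pair thus began at the same 2 places around a shared core, neither of them the annotated start of miR-3470b.

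The B2-like labels were mixed. Every read of miR-3473b/miR-3473e began within 1 base of the listed start and 94.1% began exactly there. Of start and length, only the length, 15 to 17 nt, thus set these reads apart from the annotated product. A joint label holds only sequence assigned to both hairpins, which limits the starts it can have. None of the miR-3473f reads began within 1 base of its mature start. Its second most read sequence, accactgagccatctctc with 29 reads, shares a run of 14 bases with the opposite strand of the mature miR-3473b. None of the 209 miR-8111 reads could be placed on the mature miR-8111.

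The sequences of 2 names also overlapped, in whole or in part, reads that the same files call rRNA or tRNA. Of miR-6240 reads 99.99% shared a run of at least 15 bases with an rRNA-labelled sequence, and of miR-1983 reads 90.9% did with a tRNA-labelled one. No read of the other labels did, and over other microRNA labels pooled 1.82% of reads did, with 7 of 206 labels above 50%. For the 10 names as a whole the share was 67.3%, 60.9%, 25.6% and 39.2% (64.1% ± 4.51 against 32.4% ± 9.63, SD, n = 2; exact permutation p = 0.333), the controls being higher. With a run of 18 bases, which reads of 15 to 17 nt cannot hold, it was 12.002%, 11.8%, 25.6% and 39.2%, with Mdd higher. With reads of 18 nt or longer alone and a run of 15 bases it was 36.5%, 39.5%, 25.6% and 40.5% (exact permutation p = 1.0), and the groups overlapped.

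On the miR-6240 hairpin 309 sequences labelled 28S rRNA shared such a run, with 4261, 9197, 6035 and 4222 reads. None of them lay wholly inside the hairpin. They covered bases 27 to 45 and 62 to 89, the stretches where the miR-6240 reads began. The difference can be as little as 1 base: the most read of them adds a single base to the most read miR-6240 sequence, given in capitals, and was marked as not matching the genome, whereas all 309 member sequences were marked as matching it.
28S rRNA: agcatcgcgaaggcccG
28S rRNA: acaaagcatcgcgaaggcc
The first had 1059 and 1422 reads in the controls and none in Mdd. The second, of 19 nt, had 149, 399, 931 and 356. The 17-nt form was thus found in controls only and the 19-nt form in all 4 libraries, with the most reads in Mdd 1.

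On the miR-1983 hairpin tRNA-labelled sequences covered bases 25 to 45 and 76 to 112. Of reads sharing a run of at least 15 bases with it, most were annotated as piRNA or had no annotation. These numbered 4153, 6588, 4822 and 3265 for piRNA and 2695, 4391, 4975 and 2951 without annotation. The name tRNA-Asn-GTT, a tRNA for asparagine, was on 246, 305, 376 and 160 reads. Reads named tRNA-Ile-TAT, the tRNA for isoleucine with that anticodon, numbered 182, 335, 464 and 276. Among them the following sequence, which holds the end of the most read miR-1983 sequence and the triplet CCA that is added to the end of a mature tRNA (capitals), had 18, 11, 280 and 56 reads.
tRNA-Ile-TAT: gttcgagcctcacctggagcaCCA
It was marked as not matching the genome, and its reads were more numerous in both Mdd libraries than in either control.

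The repeat-like sequences matched many genes, although gene matches of the other labels are not given here for comparison. The sequence gggctggagagatggc was found, on either strand, in 44 of 32851 RefSeq promoter windows of 300 bases (0.134%), and tgtagaccaggctggc in 33 (0.100%). In GENCODE M21 transcripts, with microRNA genes left out, tgtagaccaggctggc matched 1285 of 53248 genes on the sense strand and 1197 on the antisense strand, and gggctggagagatggc matched 469 and 484. ctgggattaaaggcgtg of miR-8111 matched 566 and 553 genes and ggcaggtggatttctg of miR-1946a 292 and 309. For each of these sequences the numbers on both strands were alike. The sequences of miR-6240 and miR-1983 were in none of the promoters or genes. Of the most read sequences of the 206 other labels, 14 were in at least 1 promoter window and 5 in 5 or more.

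Because a read can be counted for a microRNA name only if the authors' annotation gave it that name, all reads of 18 nt or longer that hold the most read sequence of a label were then counted whatever their annotation. This count was chosen after seeing the data. The most read sequences of miR-6240, miR-1983, miR-1946a, miR-8111 and both joint labels had reads in controls alone, so they were picked through the controls. gggctggagagatggc was in 295, 573, 967 and 450 such reads, or 30.4, 34.2, 40.7 and 18.9 CPM (32.3 ± 2.68 against 29.8 ± 15.4, SD, n = 2; exact permutation p = 1.0). The groups overlapped, although reads named miR-3473b/miR-3473e were absent from Mdd. Member names were on 2.54% of these reads and gene classes such as lincRNA on 84.4%.

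The same count for tgtagaccaggctggc gave 219, 245, 259 and 100 CPM (exact permutation p = 1.0), 51.9% of it under member names. For agcatcgcgaaggccc it gave 132, 195, 149 and 75.9 CPM (exact permutation p = 0.667), 91.9% labelled rRNA and 5.55% labelled miR-6240. In both cases the groups overlapped and Mdd 2 was the lowest library. For gtgagttcgagcctca it gave 15.7, 16.6, 5.90 and 7.10 CPM (16.2 ± 0.696 against 6.50 ± 0.851, SD, n = 2; exact permutation p = 0.333), 38.1% named miR-1983. Here the controls were above Mdd without overlap, an order whose frequency among other sequences was not counted. As that sequence itself had 152, 255, 0 and 0 reads, its choice favoured the controls, and nothing is read from the order. For the most read sequence of miR-3470a it gave 52.3, 59.8, 50.7 and 33.1 CPM (exact permutation p = 0.333). That was the same order, with Mdd 1 close to control 1. For the most read sequence of miR-3470b it gave 78.6, 89.1, 119 and 37.9 CPM, with overlapping groups. For ggcaggtggatttctg it gave 11.0, 15.5, 6.11 and 16.1 CPM with no read under a member name and overlapping groups. For the miR-8111 sequence it gave 0, 6.26, 0.0421 and 0 CPM, so nearly all of its reads were in control 2.

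**Figure D5:**
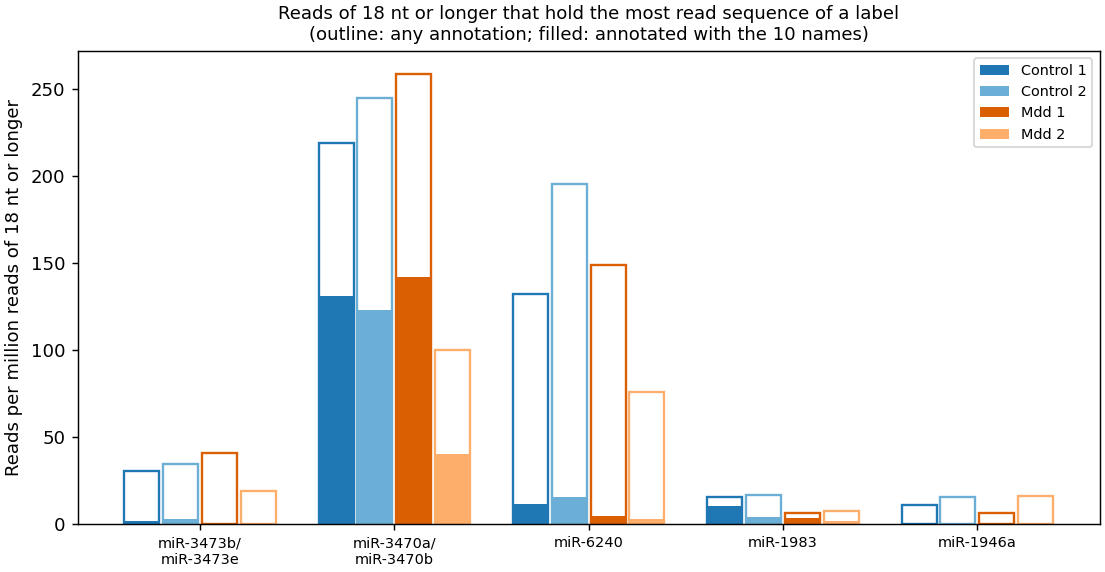
Reads of 18 nt or longer that hold the most read sequence of each of 5 labels, as CPM of the reads of that length (linear vertical axis), 1 bar per library; outlines count any annotation and the filled part counts the 10 names. The filled part is a small share for miR-3473b/miR-3473e and miR-6240, and nothing for miR-1946a; outlines of the 2 groups overlap except for miR-1983.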

How the data were processed

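Each deposited file lists, per the file headers, distinct sequences with their length, raw read count, annotation and whether they match the genome. The sequences were 15 to 45 nt long. The submitters' processing notes name mm9 and DESeq2, with no version. Aligner, trimmer and annotation source: not given in the sources used here. Tables were joined by sequence, and a sequence without annotation in one file was given that of another, since the file of Mdd 1 used fewer classes. Counts were summed per hairpin label. Reads of 15 to 17 nt were left out where stated. Mitochondrial rRNA was not counted as rRNA.

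Labels were tested with edgeR 4.0.16 (quasi-likelihood, TMM, filterByExpr, two-sided, Benjamini-Hochberg, threshold 0.05) in R 4.3.3, with DESeq2 1.42.0 as an alternative. Shares were compared by exact permutation in Python 3.11.15 with pandas 2.3.3. The code was tested on simulated data. The floor is 3 reads per library. Sequences came from RefSeq tables (GRCm38.p6) and GENCODE M21, and coordinates were not converted to mm9. RefSeq entries for miR-3470a and miR-1946a, and hairpins of miR-3470b and miR-8111, were not used here.

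The 10 names and the lists were chosen with earlier results of these data known. Named were all members, 8 comparison microRNAs, relatives by name, other names known to overlap such RNAs and the 3 labels nearest in length. The DESeq2 fit of reads of 18 nt or longer, and the fits of such reads with 1 sample left out, were chosen after seeing the data.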

Additional observations from a re-analysis of the deposited data

How the results depend on the processing

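Labels tested numbered 248, of them 9 members, except for 430 (11 members) with no filter and 236 (5) at 18 nt or longer. With control 1, control 2, Mdd 1 or Mdd 2 left out they numbered 308 (10), 266 (8), 277 (10) and 310 (10). At 18 nt or longer they then numbered 288 (7), 251 (5), 253 (6) and 284 (7). The number of labels called was 1 of 248 in edgeR and 2 of 248 with RLE scaling. It was 12 of 248 with the library size of all reads and 14 of 248 with DESeq2. It was 11 of 430 with no filter, 0 of 236 at 18 nt or longer and 7 of 236 there with DESeq2. Leaving out 1 library gave 12 (without control 1), 5 (control 2) and 0 (either Mdd library); at 18 nt or longer it gave 7, 0, 5 (without Mdd 1) and 16 (without Mdd 2). Member labels called were 1, then 2, 3, 4 and 2 with the first 4 alternatives, 0 at 18 nt or longer with either tool, 0 to 4 with a library left out (0 without either Mdd library, 2 without control 1, 4 without control 2) and 0 at 18 nt or longer. A lone remaining sample is assumed to vary like the other group. Replicate numbers did not pair the samples (r = -0.0512 between deviations of same-numbered samples over 248 labels), and with a replicate block 0 labels and 0 members were called. The library size of all reads moved the median of all labels to -0.79. Signs turned as follows, and the cause was not tested. The Mdd minus control difference in the 21 to 23 nt share was -0.787 points at 18 nt or longer, and that in the run share was 20.55 with runs of 18 bases, which the short reads cannot hold, and 2.14 with distinct sequences counted once. The log2 fold change of miR-6240 was 0.0431 at 18 nt or longer, 0.0849 there with DESeq2, and 0.29 and 0.35 there without control 1 and Mdd 1; that of miR-1983 was 0.32 at 18 nt or longer without control 1, and that of miR-3473f 0.69 at 18 nt or longer without Mdd 1. For miR-3470a it ranged from -0.20 to 0.70 with a library left out and was -0.32 with all reads as library size and -0.17 without control 2 at 18 nt or longer. For miR-3470b it ranged from -0.57 to 0.49 with a library left out and was 0.0115 with the replicate block, 0.17 at 18 nt or longer, 0.19 there with DESeq2, 0.29 without Mdd 2, and 0.78 and 0.57 at 18 nt or longer without control 1 and Mdd 2.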

Other observations

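Relatives by name had few reads. Of 5 listed, 3 had any: miR-3473c with 2, 36, 0 and 0 reads, miR-3473d with 15, 1, 0 and 0, and miR-1946b with 0, 0, 0 and 23. A further 6 labels that mix a member with another name held 39, 88, 37 and 0 reads.

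Of 10 other microRNA names known to overlap rRNA, tRNA or repeats, 4 had reads: miR-6236 with 7689 over the 4 libraries, miR-3535 with 754, miR-712 with 437 and miR-7229 with 419. Reads of 21 to 23 nt made up 6.76% to 20.7% of them. The labels nearest to the 10 names in length were miR-690, miR-203 and miR-5100, at total variation distances of 0.206, 0.295 and 0.336 on a scale from 0 (the same shares at each length) to 1. The pools of nuclear rRNA, tRNA and other microRNA reads lay at 0.557, 0.617 and 0.731. miR-690 had 35, 388, 0 and 87 reads, with 56.9% at 15 to 17 nt and 10.8% at 21 to 23 nt.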
